A study of Macaca fascicularis with 605 samples.

Results

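Laminins are cross-shaped proteins of 1 alpha, 1 beta and 1 gamma chain that assemble inside the cell, are secreted and polymerise into the scaffold of the basement membrane. Integrins are cell-surface receptors of 1 alpha and 1 beta subunit that bind laminins, fibronectin, vitronectin or collagens outside the cell and couple to actin through talin and kindlin inside it. In the mammalian blastocyst, primitive endoderm (hypoblast) and trophectoderm lay down laminin-rich basement membranes, and the epiblast polarises on the membrane that it faces. The members were all rows of the expression table whose gene symbol names a laminin chain or an integrin subunit: 35 of 26018 genes, namely 9 laminin chains and 26 integrin subunits (18 alpha and 8 beta). The symbol rule also matched ITGB3BP, whose product is a centromere protein and no integrin. It was left out of the 35, with ITGB1BP1, ITGB1BP2 and ITGBL1.

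The data are 605 single cells of the cynomolgus monkey (Macaca fascicularis), read with SC3-seq. It counts the 3′ ends of messenger RNAs, and the level of a gene is its read count scaled to the total of the cell (RPM). Of these, 540 came from embryos, 384 of them after implantation. The days before it were embryonic day 6 (E06, 24 cells), E07 (30), E08 (86) and E09 (16). After it, E14 gave 39 cells, E17 56 and E20 5, and E13 and E16 gave the rest. Outside the embryo were 28 ESCs (embryonic stem cells), 12 PGCLCs (cells made in culture to resemble primordial germ cells) and 25 germ cells of embryonic gonads. The ESCs were 13 cells of line CMK6 and 7 of CMK9, both kept on mouse feeder cells with knockout serum replacement, LIF and bFGF, and 8 of line 656BTAG, kept in AITS medium with bFGF and the tankyrase inhibitor IWR1. The PGCLCs were induced from 656BTAG, which carries reporters for germ cell genes, for 8 days with BMP4, SCF, EGF, LIF and Y27632 and were sorted on the reporters, 6 from the medium GK15 and 6 from aRB27. Both media therefore rest on 1 ESC line. The gonadal cells (5 from E36, 6 from E43, 1 from E47, 5 from E50, 7 from E51 and 1 from E55) were chosen from gonads by germ cell genes measured by qPCR. Whole embryos were dissociated before implantation, whereas after it a dissected fragment was used that holds epiblast, amnion, hypoblast and yolk sac endoderm, so the cells sampled on the 2 sides are not the same mixture. In means over all cells, fewer cells of a type and less RNA per cell cannot be told apart.

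Cells were sorted into gates by 1 gene at 50 RPM or more: SOX2, a transcription factor of the epiblast; GATA4, of hypoblast and yolk sac endoderm; GATA3, of trophectoderm and amnion; and COL3A1, a collagen of mesenchyme. A cell could pass several gates. The GATA4 and GATA3 gates shared 22 cells before and 66 after implantation. Before implantation the SOX2 gate held 65 cells, the GATA4 gate 51, the GATA3 gate 68 and the COL3A1 gate 0. After it the gates held 43.0%, 33.6%, 31.8% and 23.96% of the 384 cells, which is 92 for COL3A1. A unit of every main test was the mean over at least 5 cells of a day, line or medium. Tests were made with limma on log2(mean RPM + 1) over all genes that reached 10 RPM in 2 or more units. Smaller units of added or alternative fits are stated with them. A gene was called at a Benjamini-Hochberg adjusted p under 0.05. Overlap of units, where stated, describes a member. It is no further test and was not counted over all genes. Changes are differences on that log2 scale with their standard error, and they understate the change of genes near 0. No label ties a cell to an animal or a culture dish. The p-values therefore measure the spread between days or lines, which may be technical and, for days, includes development itself. RPM from 3′ tags carries no length correction, and levels are compared within a gene, not between genes.

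Depth did not separate the periods: the median was 2315167 reads per cell before and 2236786 after implantation, over cells whose reads could be recovered, with medians of 10012 and 9536 genes above 0. The gates were checked against marker lists by summed RPM. SOX2-gated cells carried the epiblast list before (median 5224, range 434 to 8965, 8 of 9 genes with a mean of at least 10 RPM) and after implantation (5942, 544 to 9520, 9 of 9). In the same gate the trophectoderm list went from a median of 1560 (30.2 to 20061, 4 of 9) to 115.2 (2.94 to 5090, 5 of 9), and the germ cell list from 684 (172.6 to 1850, 4 of 8, NANOS3 at 0) to 27.9 (0 to 2091, 4 of 8). GATA4-gated cells carried the hypoblast and endoderm list before implantation (4273, 555 to 15333, 8 of 10) and less of it after (777, 77.05 to 22728, 9 of 10). The mesenchyme list went the other way in the GATA4 gate, from a median of 59.2 (0 to 1719, 2 of 10) to 1776 (1.12 to 50175, 10 of 10). GATA3-gated cells carried the trophectoderm list at a median of 5776 before (342 to 22399.9, 9 of 9) and 1287 after implantation (138.98 to 63961, 8 of 9). The epiblast list of that gate had a median of 1097 before and 1594 after it. The part of these list changes, those of the SOX2 gate included, in the changes below was not tested. Of the 92 COL3A1-gated cells, 66 also passed the GATA4 or the GATA3 gate.

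**Figure D1:**
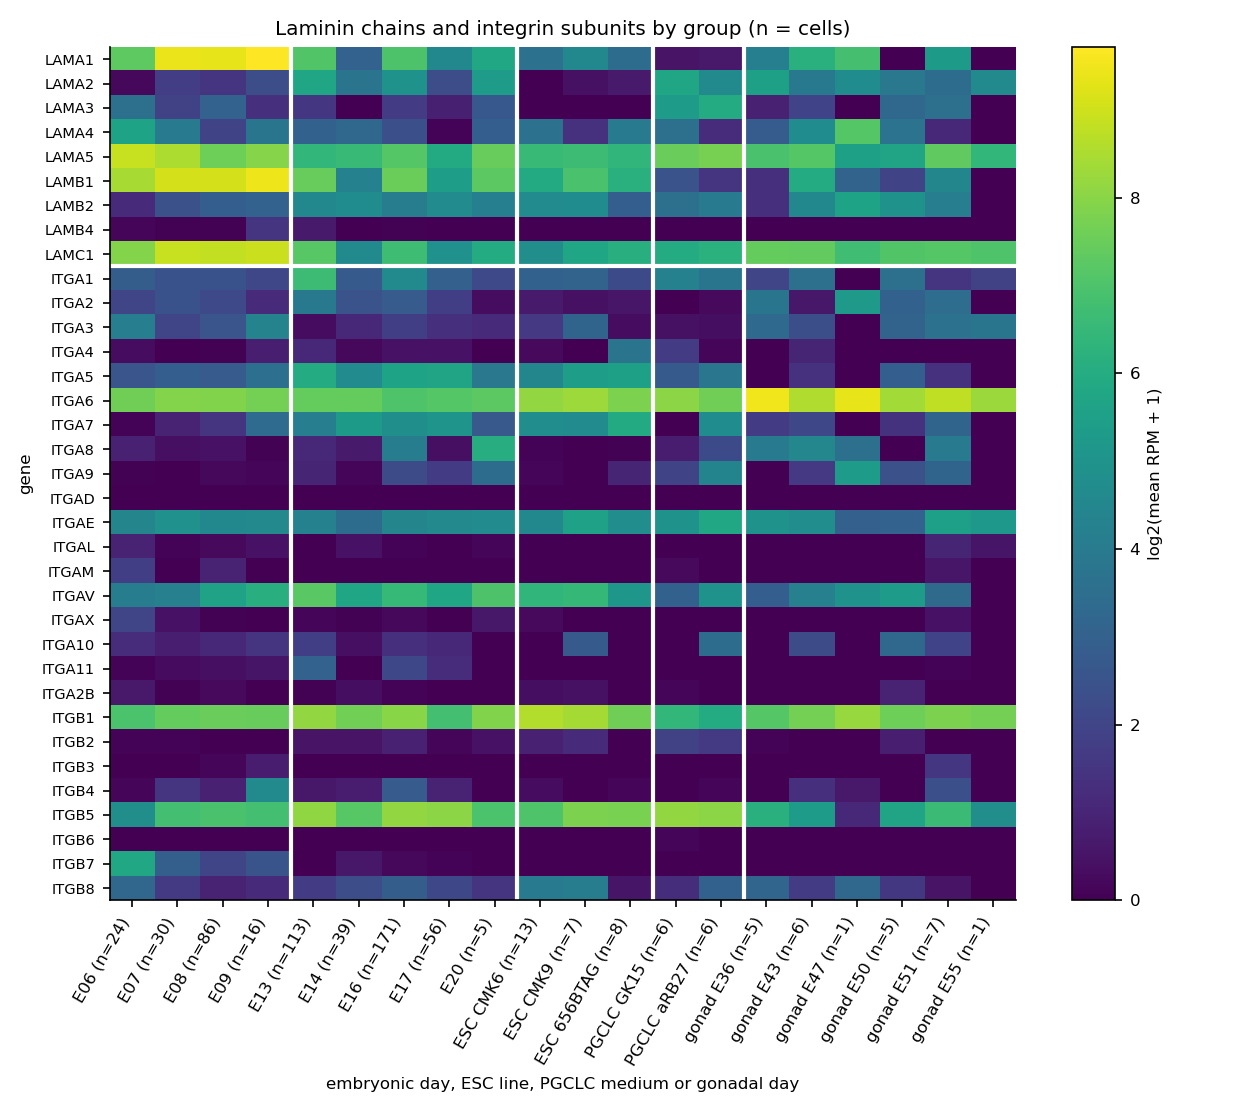
Heat map of log2(mean RPM + 1) for laminin chains and integrin subunits (rows) in each day, ESC line, PGCLC medium and gonadal day (columns), with the number of cells of each column. LAMA1, LAMB1 and LAMC1 are brightest from E07 to E09, and ITGA5 and ITGA7 are brighter from E13 on.

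Across implantation, the RNAs of the 3 chains of a classical early-embryo laminin, LAMA1, LAMB1 and LAMC1, and of the alternative alpha chain LAMA5 fell, while LAMA2, LAMB2 and the integrin subunits ITGA5, ITGA7, ITGAV and ITGB5 rose. ITGA3 and ITGA6, alpha subunits of laminin receptors, fell, and no difference was called for ITGB1, the beta subunit that most of these alpha subunits share. In all embryo cells, 17 of the 35 members passed the filter on low values. Of these, 6 rose, 6 fell and 5 were not called. Of all genes tested, 30.7% were called (15.3% up and 15.4% down). The median change of the tested members was 0.37, and that of all genes tested -0.05.

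LAMA1, the alpha chain that basement membranes of the early embryo depend on, stood at 157.5, 697, 655 and 841 RPM on E06, E07, E08 and E09, and at 134.7, 7.42, 126.3, 22.1 and 54.4 RPM on E13, E14, E16, E17 and E20. LAMB1, its beta chain, stood at 344, 539, 542 and 704 RPM before and at 177, 18.2, 186.7, 42.1 and 153.97 RPM after implantation. LAMC1, its gamma chain, stood at 244, 483, 447 and 484 RPM before and at 146.03, 23.3, 102.8, 29.5 and 62.2 RPM after. In each of the 3 chains every day before implantation was above every day after it, and E14 and E17 were the lowest days. The changes were -3.46 ± 0.80 for LAMA1 (limma, adjusted p = 0.00854), -2.61 ± 0.63 for LAMB1 (0.0102) and -2.76 ± 0.49 for LAMC1 (0.00238), with 4 days before and 5 after.

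LAMA5, an alpha chain of many epithelial basement membranes that pairs with the same beta and gamma chains, was highest on the first day: 483, 367, 189 and 246 RPM on E06 to E09, then 84.9, 93.4, 140.6, 61.2 and 176 RPM from E13 to E20. The days did not overlap, and the change was -1.53 ± 0.34 (limma, adjusted p = 0.00727). LAMA2, the alpha chain typical of muscle and mesenchyme, went from 0.16, 2.41, 1.75 and 3.91 RPM to 51.7, 12.3, 30.9, 3.95 and 38.9 RPM, a rise of 2.98 ± 0.70 (0.00941) in which E09 and E17 nearly met. LAMB2, a beta chain that can replace LAMB1, went from 1.31, 4.31, 6.46 and 7.21 RPM to 22.1, 25.7, 16.4, 24.9 and 17.1 RPM, a rise of 2.06 ± 0.40 (0.00354) with no overlap. The test of LAMA4 made no call, and LAMA3 and LAMB4 were below the filter.

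Among the alpha subunits, ITGA5, the partner of ITGB1 in the fibronectin receptor, was at 4.98, 6.56, 5.99 and 10.9 RPM before implantation and at 62.7, 24.7, 48.8, 49.9 and 13.9 RPM after. ITGA7, a laminin-binding subunit best known from muscle, was at 0.073, 0.92, 1.86 and 9.58 RPM before and at 16.9, 38.8, 27.5, 31.6 and 5.55 RPM after. ITGAV, the subunit of receptors for vitronectin and other RGD-containing proteins, was at 16.4, 17.7, 47.4 and 67.9 RPM before and at 150.7, 53.5, 91.03, 53.3 and 125.9 RPM after. ITGA5 did not overlap between the periods, whereas ITGA7 of E20 lay below that of E09, and ITGAV of E14 and E17 below that of E09. The rises were 2.21 ± 0.43 for ITGA5 (limma, adjusted p = 0.00378), 2.92 ± 0.70 for ITGA7 (0.0106) and 1.45 ± 0.47 for ITGAV (0.0376).

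ITGB5, the beta subunit that pairs with ITGAV, was at 26.8, 111.4, 119.5 and 111.5 RPM before implantation and at 275, 146.3, 281, 262 and 125.1 RPM after, a rise of 1.36 ± 0.44 (limma, adjusted p = 0.0381). ITGA6, which forms laminin receptors with ITGB1 or ITGB4, was at 196, 243.4, 233.8 and 206.7 RPM before and at 170.2, 170.7, 130.4, 142.4 and 152.7 RPM after, a fall of small size that did not overlap (-0.52 ± 0.15, 0.022). ITGA3, another laminin-binding subunit, fell by 2.12 ± 0.61 (0.0225) from a low level, 16.6, 3.07, 4.98 and 19.2 RPM before against 0.24, 1.17, 2.49, 1.498 and 1.302 RPM after. ITGB1 was above 0 in all 605 cells. Its day means were 123.8, 168.9, 178 and 175 RPM before implantation and 280.0, 200.3, 252, 113.01 and 233.6 RPM after, which overlapped. With edgeR on the recovered reads, the calls of ITGAV, ITGB5 and ITGA6 were lost (adjusted p = 0.0665, 0.0897 and 0.124), and those of ITGAV and ITGB5 were each also lost when any of 5 of the 9 days was left out, and that of ITGA6 without E07, E08 or E16.

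Of the 18 members below the filter, several are receptors of blood cells: ITGA2B, ITGAL, ITGAM, ITGAX, ITGB2 and ITGB3 were at 10 RPM or more in 1 to 5 of the 540 embryo cells. ITGAD was listed at 0 in every cell, and ITGB6 was above 0 in 2 cells. ITGB7 was an exception in time. On E06 it had a mean of 54.1 RPM (SD 78.6, 24 cells) with 19 of 24 cells at 10 RPM or more, on E07 to E09 its means lay between 3.05 and 6.65 RPM, and after implantation no day exceeded 0.53 RPM. It was not tested because a single day reached the filter.

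Some cells before and after implantation share a code in their titles (MS and a number) whose meaning the labels do not state. In the code MS126 (15 cells before and 53 after), LAMA1 was 9.44 RPM before and 29.3 after, and LAMB1 60.1 and 55.7, so neither showed the fall. Of the MS126 cells, 14 of the 15 before and 32 of the 53 after passed the SOX2 gate. The 2 sides of this code are thus not the same mixture, and the part of that in its values was not tested. In MS132 (13 and 54 cells), LAMA1 went from 510 to 154.3 RPM, LAMB1 from 406 to 201.8 and LAMC1 from 395 to 156.8. In MS133 (43 and 11 cells), LAMA1 went from 943 to 209 RPM, LAMB1 from 754 to 412 and LAMC1 from 615 to 228.2. LAMC1 and LAMA5 were lower after implantation within each of the 3 codes, and ITGA5, ITGAV and ITGB5 were higher. A fit over units of day and code, of at least 3 cells each, had the code as a term. That fit kept the direction of LAMA1 (-0.61, limma, adjusted p = 0.559), LAMB1 (-0.61, 0.151) and LAMC1 (-0.99, 0.0888) without a call. It kept the calls of ITGA5, ITGAV, ITGB5, LAMA2 and LAMA5. LAMB2 (limma, adjusted p = 0.245), ITGA7 (0.192) and ITGA6 kept their direction in it without a call. LAMB2 went from 22.7 to 19.8 RPM in MS126, from 4.40 to 18.2 in MS132 and from 1.43 to 37.8 in MS133.

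The SOX2 gate follows cells with an epiblast factor, which are not all epiblast. Before implantation, 25 of its 65 cells also had GATA6, a hypoblast factor, at 50 RPM or more. In the SOX2 gate, 14 members passed the filter, 5 rose, 4 fell and 5 were not called. Of all genes tested in that gate, 37.7% were called (17% up and 20.7% down). LAMA1, LAMB1, LAMC1 and LAMA5 fell, and LAMA2, ITGA5, ITGA7, ITGAV and ITGB5 rose. The median change of the members tested was -0.21, beside -0.09 for all genes.

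LAMA1 in SOX2-gated cells was at 146.3, 615, 92.9 and 190.1 RPM on E06 to E09 and at 6.81, 7.31, 41.3 and 10.2 RPM on E13, E14, E16 and E17. Over the 65 cells before implantation its median was 15.3 RPM, and the highest cell, on E07, had 5001 RPM. LAMB1 was at 381, 311, 136.5 and 299.7 RPM before and at 29.3, 16.6, 77.5 and 33.5 RPM after. LAMC1 was at 278, 298, 122.9 and 210.6 RPM before and at 27.6, 21.3, 48.4 and 24.5 RPM after. In all 3 chains the lowest day before implantation was E08 and the highest day after it was E16, and the 2 did not meet. The changes were -3.92 ± 0.61 for LAMA1 (limma, adjusted p = 0.000645), -2.93 ± 0.43 for LAMB1 (0.000414) and -2.85 ± 0.32 for LAMC1 (8.15e-05), over 4 days against 4. LAMA5 went from 551, 374, 179 and 237 RPM to 90.96, 90.3, 114.6 and 48.97 RPM, a change of -1.88 ± 0.35 (0.00171).

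LAMA1 was higher in SOX2-gated cells that also carried GATA6, a transcription factor of hypoblast. Before implantation, 25 of the 65 cells had GATA6 at 50 RPM or more, among them 13 of the 14 of E06. LAMA1 was 623 RPM in these 25 (SD 1292), the cell at 5001 RPM among them, and 21.9 in the other 40 (SD 54.7). LAMB1 was 532 against 81.4 RPM, LAMC1 436 against 73.8 and LAMA5 502 against 202.3. NANOG, an epiblast factor, was 390.5 RPM in the cells with GATA6 and 2011 in those without. After implantation, 17 cells (10.3%) had GATA6, with LAMA1 at 101.1 RPM against 9.33 in the others.

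Without the cells that had GATA6, the fall of LAMA1 was no longer called (-0.55 ± 0.48, limma, adjusted p = 0.394). LAMB1 (-1.64), LAMC1 (-1.48) and LAMA5 (-1.38) still fell, at an adjusted p of 0.000576, 0.00076 and 0.000945. This comparison was added after the data were seen, and E06, left with 1 cell, has no unit in it. Its call for ITGA5 was lost (1.04, 0.103). No alternative in this gate called more than 42.4% of all genes tested. LAMA1 had the other sign (1.10) in the fit over units of day and title code. In this gate MS126 was the only code with units on both sides. Those were E08 (13 cells) before, and E16 (4) and E17 (28) after implantation. The code was therefore no term, and with 1 day before implantation that fit cannot decide whether a member changed. LAMB1, LAMC1, LAMA5, ITGA5, ITGA7, ITGAV and ITGB5 kept their direction in it. Over the SOX2-gated cells of MS132 (4 before and 14 after), LAMA1 went from 188.5 to 26.8 RPM. Among SOX2-gated cells of E07, the 5 cells of code MS003 had a mean LAMA1 of 1068 RPM and a mean GATA6 of 372.

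**Figure D2:**
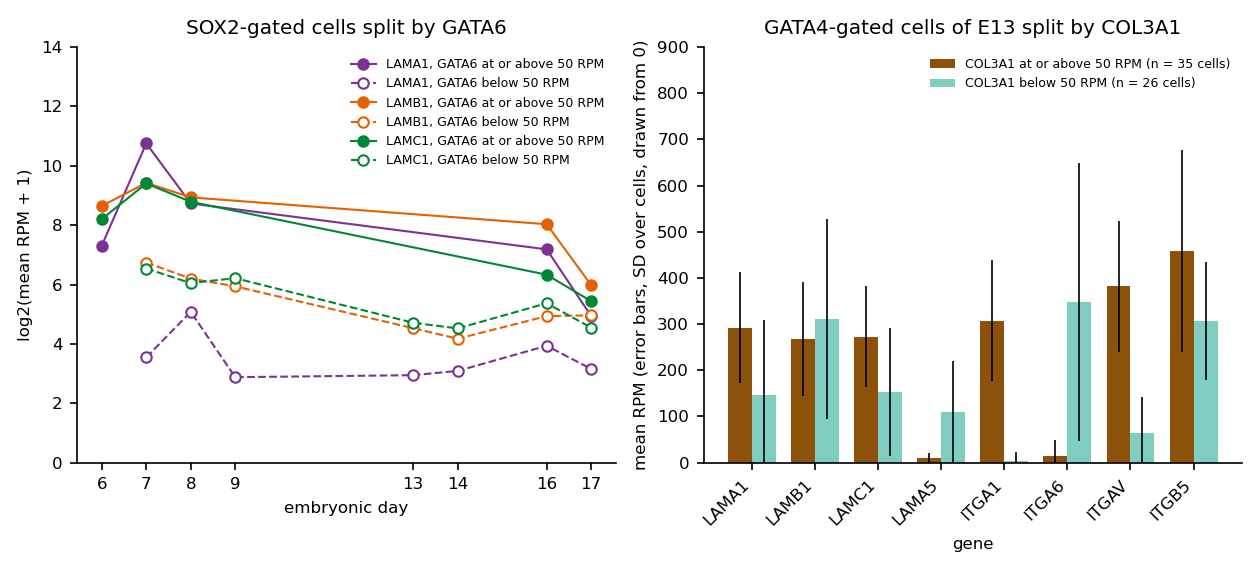
Left, log2(mean RPM + 1) of LAMA1, LAMB1 and LAMC1 by embryonic day in SOX2-gated cells with GATA6 at or above 50 RPM (filled) and below it (open), each point a mean of at least 4 cells. Right, mean RPM and SD over cells of 8 members in GATA4-gated cells of E13 with COL3A1 at or above 50 RPM (35 cells) and below it (26 cells). LAMA1 before implantation is 623 RPM in the cells with GATA6 and 21.9 in those without, and ITGA6 on E13 is 13.9 RPM with COL3A1 and 347 without.

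Of the 7 integrin subunits tested in SOX2-gated cells, 4 rose and 0 fell. ITGA7, the laminin-binding subunit, was at 0.13, 1.63, 5.77 and 19.2 RPM on E06 to E09 and at 40.1, 39.6, 68.1 and 45.4 RPM after implantation, a rise of 3.42 ± 0.71 (limma, adjusted p = 0.00334). Its mean was above that of the day before on each day from E06 to E09, and 12.3% of the cells had at least 10 RPM before implantation, against 78.8% after. ITGAV was at 22.2, 9.23, 18.5 and 29.1 RPM and then at 42.3, 50.6, 46.4 and 55.8 RPM, a rise of 1.36 ± 0.31 (0.00618). ITGB5 was at 25.6, 114.1, 72.2 and 95.9 RPM and then at 125.6, 124.4, 224.05 and 267 RPM, a rise of 1.37 ± 0.42 (0.0256). None of the 3 overlapped between periods, and all 3 were still called without the cells that had GATA6 (2.57, 2.51 and 1.00). With edgeR, the calls of ITGAV and ITGB5 were lost (adjusted p = 0.0539 and 0.162). ITGA5 rose by 1.25 ± 0.40 (0.0304), from 3.08 to 10.95 RPM over the days before to between 11.6 and 16.7 after, and LAMA2 by 2.13 ± 0.75 (0.0442) with overlap, 0 to 1.73 RPM against 0.59 to 16.2. ITGA5 lost its call when any of 5 of the 8 days was left out, and LAMA2 in 5 of the 6 such tests that its filter allowed. In cells of the SOX2 gate alone, ITGA5 was without a call (1.15, 0.0961). ITGB1 stood at 140.5, 180.0, 143.2 and 147.7 RPM before and at 143.7, 212.99, 167.05 and 106.2 RPM after, and ITGA6 at 200.6 to 291 RPM before and 157.5 to 190.6 RPM after. Both were without a call, as was ITGAE (-0.80 ± 0.35, adjusted p = 0.0937).

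Before implantation, GATA4-gated cells had a mean LAMB1 of 925 RPM (SD 529), against 681 (SD 555) in the GATA3 gate, and a mean LAMA1 of 978 (SD 640.5), against 957 (SD 908). Of the 15 members tested in the GATA4 gate, 2 rose, 5 fell and 8 were not called, against 18.8% of all genes called (10.2% up and 8.64% down). The median change was 0.05 for the members and -0.01 for all genes. LAMA1, LAMB1, LAMC1, LAMA5 and ITGA6 fell, and LAMB2 and ITGA5 rose.

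LAMA1 in GATA4-gated cells was at 869, 948 and 1574 RPM on E07, E08 and E09 and at 229.9, 12.9, 195 and 75.3 RPM on E13, E14, E16 and E17. LAMB1 was at 931, 871 and 1452 RPM before and at 286, 31.7, 282 and 49.6 RPM after. LAMC1 was at 745, 672 and 820.4 RPM before and at 222, 34.7, 129.5 and 32.96 RPM after. For each chain every day before implantation was above every day after it, and E14 and E17 were the lowest days. Those 2 units held 5 and 9 cells, against 61 on E13 and 53 on E16. Before implantation E07 held 8, E08 35 and E09 6. The changes were -3.71 ± 0.82 for LAMA1 (limma, adjusted p = 0.0133), -3.29 ± 0.73 for LAMB1 (0.0133) and -3.27 ± 0.60 for LAMC1 (0.00632), over 3 days against 4. Leaving out E09 ended the calls of LAMA1 (adjusted p = 0.0559) and LAMB1 (0.0555). LAMA5 went from 394, 190.3 and 259.6 RPM to 52.4, 114.04, 154.8 and 74.1 RPM (-1.55 ± 0.39, 0.0215). The call of LAMA5 was lost when E07, E09 or E17 was left out.

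LAMB2 was nearly absent from GATA4-gated cells before implantation, at 0, 1.297 and 0.54 RPM, and reached 10.1, 53.1, 19.6 and 26.5 RPM after it (3.99 ± 0.66, limma, adjusted p = 0.00404). ITGA5 was at 16.02, 12.02 and 12.4 RPM before and at 100.4, 88.5, 78.3 and 125.02 RPM after, a rise of 2.76 ± 0.28 (0.000428). ITGA6 was at 315, 331 and 224.1 RPM before and at 156.1, 61.3, 95.9 and 103.6 RPM after, a fall of 1.52 ± 0.31 (0.0104). The groups of days did not overlap in any of these. For the fit over units of day and title code, MS133 was the only code of this gate on both sides, so the code was no term. All its cells before implantation were of E08, and with 1 day there that fit cannot decide whether a member changed. LAMA1, LAMB1, LAMC1, LAMA5, ITGA6 and ITGA5 kept their direction in it, and LAMB2 was not tested. Over the GATA4-gated cells of MS133 (25 before and 6 after), LAMA1 went from 952.4 to 227.7 RPM and LAMB1 from 868.7 to 436.8. LAMC1 went from 674.3 to 197.5 RPM and ITGA5 from 14.84 to 112.5.

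After implantation, 51 of the GATA4-gated cells (39.5%) also had COL3A1 at 50 RPM or more, and none of the 51 before it did. On E13, where 35 cells had COL3A1 and 26 did not, several members differed between them. ITGA1, a collagen receptor subunit, was 307 RPM (SD 130.97) with COL3A1 and 4.06 (SD 18.7) without. ITGA6 was 13.9 RPM (SD 34.1) with and 347 (SD 301) without, and ITGAV 382 (SD 141.9) and 64.6 (SD 77.6). LAMB1 was 268 and 310.4 RPM, LAMC1 273 and 152.8, LAMA1 293 and 145.4, and LAMA5 10.5 and 108.8. The E13 cells without COL3A1 had SOX17 at 570.2 RPM and APOA1, an apolipoprotein of yolk sac endoderm, at 1311, and those with COL3A1 had them at 0.22 and 2.82. These are cells of 1 day, so the split carries no test.

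Leaving out the cells with COL3A1, a comparison added after the data were seen, kept the falls of LAMA1 (-3.18), LAMB1 (-2.76), LAMC1 (-3.20) and LAMA5 (-1.28) and the rises of LAMB2 (3.44) and ITGA5 (2.81). It lost the fall of ITGA6 (-0.88 ± 0.44, limma, adjusted p = 0.197). The 78 cells left had LAMA1 at 135.4 RPM, against 978 in the 51 cells before implantation. In cells that passed the GATA4 gate and no other, the calls of ITGA6 (-1.32, 0.365) and LAMA5 (-1.49, 0.191) were lost.

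**Figure D3:**
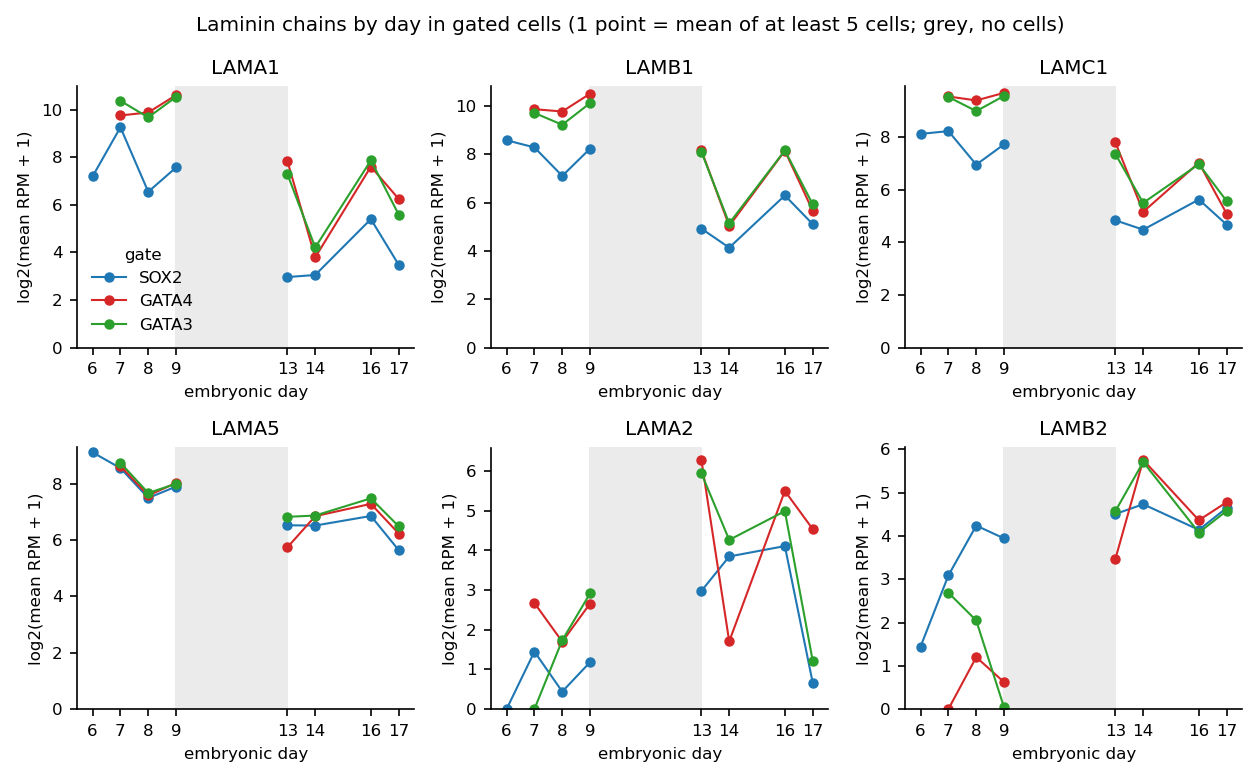
Log2(mean RPM + 1) of 6 laminin chains by embryonic day in SOX2-, GATA4- and GATA3-gated cells, each point a mean of at least 5 cells, with the days between E09 and E13 in grey. LAMA1, LAMB1 and LAMC1 lie lower after implantation in each gate, and LAMB2 in the GATA4 gate goes from at most 1.297 RPM to at least 10.1.

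In the GATA3 gate, 5 of 17 tested members rose, 4 fell and 8 were not called, against 17.8% of all genes called (10.5% up and 7.32% down). The median change was 0.74 for the members and 0.03 for all genes. LAMA1 went from 1332, 822 and 1492 RPM on E07, E08 and E09 to 156.8, 17.5, 233 and 47.4 RPM on E13, E14, E16 and E17 (-3.96 ± 0.73, limma, adjusted p = 0.00636). Its highest cell before implantation had 5001 RPM, the same value as in the SOX2 gate, beside a median of 761. LAMC1 went from 736, 506 and 757 RPM to 162.9, 44.2, 124.6 and 46.4 RPM (-3.01 ± 0.45, 0.00241). LAMB1 fell by 2.85 ± 0.68 (0.0186) and LAMA5 by 1.22 ± 0.32 (0.0258), both without overlap of the days. Leaving out E07 or E17 ended the calls of LAMB1 and LAMA5, and so did leaving out E09 for LAMB1 and E13 for LAMA5. In cells of the GATA3 gate alone, LAMA5 was also without a call (-0.47, 0.429).

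ITGA5 in GATA3-gated cells went from 3.01, 5.70 and 10.8 RPM to 66.4, 49.5, 63.2 and 110.7 RPM (3.37 ± 0.45, limma, adjusted p = 0.00145). ITGB5 went from 84.3, 110.6 and 127.1 RPM to 299, 256, 318 and 168.5 RPM (1.25 ± 0.28, 0.0136). ITGA7 rose by 3.44 ± 0.71 (0.0105), from at most 0.86 RPM to between 4.84 and 25.5. ITGA1 rose by 3.32 ± 0.71 (0.0121), with E13 at 58.6 RPM far above 15.9, 17.7 and 14.7 on the other days, and LAMB2 by 3.15 ± 0.69 (0.0135). The calls of ITGB5, ITGA7, ITGA1 and LAMB2 were lost with edgeR (adjusted p = 0.0642, 0.104, 0.0936 and 0.0889). Before implantation these cells had a mean of 6706 RPM of KRT18, a keratin of trophectoderm, and after it 1187.

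LAMA1, LAMB1 and LAMC1 are the chains of 1 trimer, and over all embryo cells their rank correlations were higher than those with LAMA5. Over all embryo cells before implantation, Spearman's rho was 0.85 for LAMA1 and LAMB1, 0.88 for LAMA1 and LAMC1 and 0.87 for LAMB1 and LAMC1. Over the 384 cells after it, the values were 0.65, 0.54 and 0.66. LAMA5 and LAMB1 had a rho of 0.15 before and 0.03 after over all embryo cells. Within the SOX2 gate, rho for LAMA1 and LAMB1 was 0.63 before and 0.20 after. There LAMA5 had a rho of 0.43 with LAMA1, 0.46 with LAMB1 and 0.53 with LAMC1 before implantation, and of at most 0.09 after it. These are descriptions over cells that share days and cell types, and genes measured in the same cell share its depth.

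A cell with all 3 chains at 10 RPM or more carries RNA for the whole trimer. Before implantation this held for 51 of 51 GATA4-gated cells (exact 95% interval 93.02 to 100%), 65 of 68 GATA3-gated cells (95.6%, 87.6 to 99.1%) and 36 of 65 SOX2-gated cells (55.4%, 42.5 to 67.7%). After implantation it held for 92 GATA4-gated cells (71.3%, 62.7 to 78.9%), 80 GATA3-gated cells (65.6%, 56.4 to 73.9%) and 69 of 92 COL3A1-gated cells (75%, 64.9 to 83.4%). SOX2-gated cells after implantation had the smallest share of these gates, 27 cells (16.4%, 11.1 to 22.9%). With LAMA5 in place of LAMA1 the share in that gate was 70 cells (42.4%, 34.8 to 50.3%). The intervals cover counting of cells, which are not replicates.

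**Figure D4:**
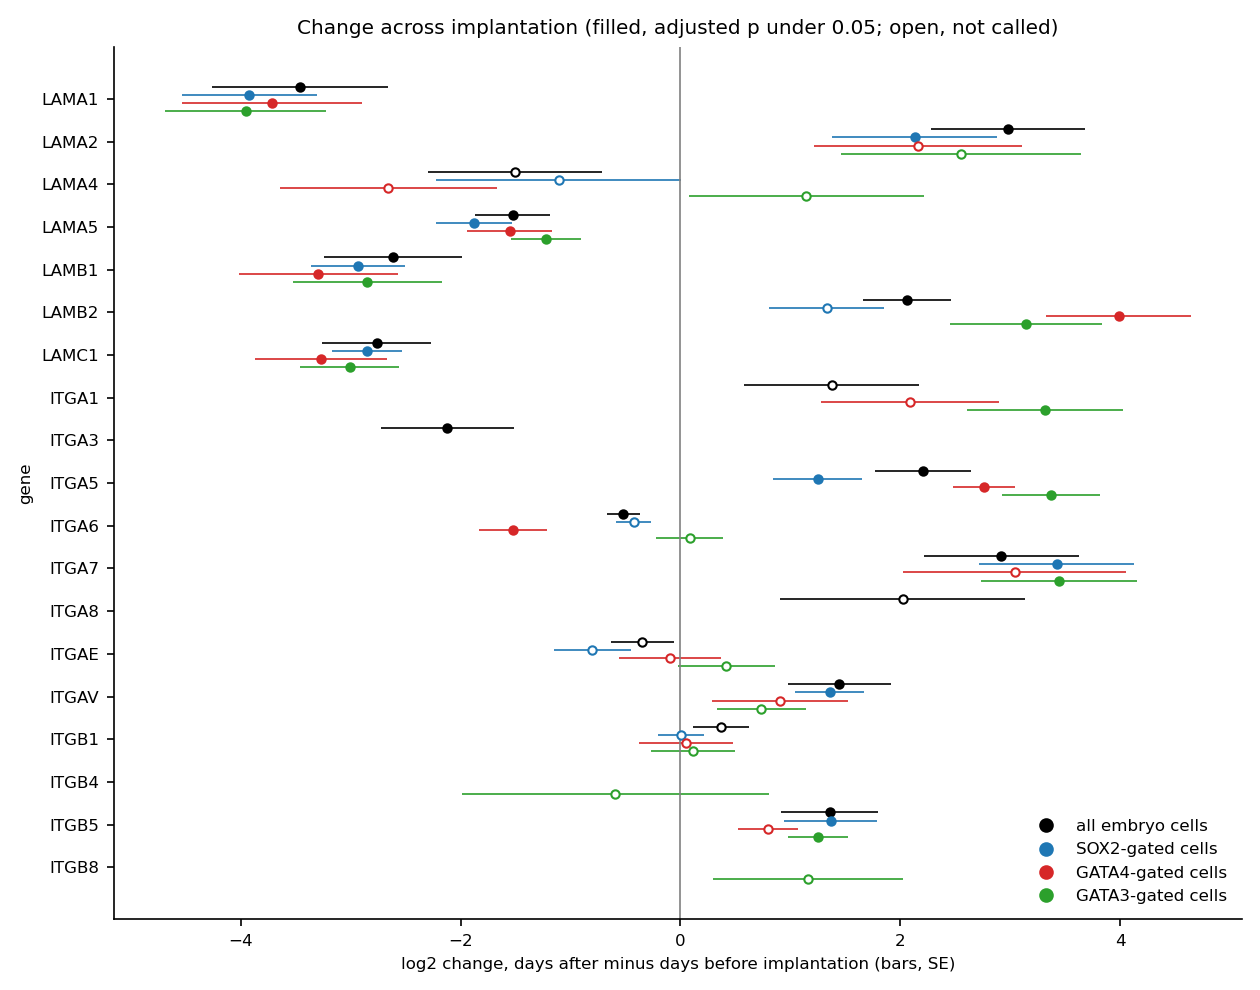
Change in log2(mean RPM + 1) from before to after implantation, with standard errors, for the members tested in all embryo cells and in SOX2-, GATA4- and GATA3-gated cells, with called changes filled. LAMA1, LAMB1, LAMC1 and LAMA5 lie below 0 in all 4 sets of cells, from -1.22 for LAMA5 in the GATA3 gate to -3.96 for LAMA1 in that gate. The sets share cells.

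Whether the change differed between gates was tested on cells that passed 1 gate alone. The GATA4 units were E07 and E08 before and E13 and E16 after implantation. GATA4-alone cells (26 on each side) had a median hypoblast and endoderm list of 3910 RPM before and 1089 after. Their mesoderm and streak list went from 185 to 1503 and their epiblast list from 1390 to 1793, so this gate does not follow 1 lineage. None of the 17 members tested had a called difference between the GATA4 and SOX2 changes, against 1.96% of all genes. By limma, 0 of the 17 had an unadjusted p under 0.05, beside 1726 of all 10230 genes tested, and edgeR called 0 of 15. The difference for LAMA1 was -1.02 ± 1.15 and for LAMC1 -0.30 ± 0.64, in each case no more than its standard error. No call was made for ITGA7 (-1.56 ± 1.47), although its rise was called in the SOX2 gate and not in the GATA4 gate.

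After implantation, single-gate cells were compared on their days with the SOX2 gate. LAMA1 was at 5.66, 5.65, 12.8 and 6.50 RPM in SOX2 cells of E13, E14, E16 and E17, at 140 and 55.7 RPM in GATA4 cells of E13 and E16, at 131.97 and 175 RPM in GATA3 cells of the same days, and at 144.6 RPM in COL3A1 cells of E16. LAMB1 was at 14.6, 14.1, 28.9 and 26.5 RPM in SOX2 cells, at 276 and 112.1 in GATA4 cells, at 217.2 and 200 in GATA3 cells and at 391 in COL3A1 cells. Every unit of the other gates was above every SOX2 unit for both chains. In the GATA4 gate, 2 of 18 members were higher than in SOX2 cells (LAMA1 3.22 ± 0.61, limma, adjusted p = 0.0394, and LAMB1 3.04 ± 0.51, 0.0243), against 1.38% of all genes called (1.02% up). In the GATA3 gate the same 2 were higher (3.99 ± 0.61, 0.0192, and 3.28 ± 0.51, 0.0198), against 1.4% (1.08% up).

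COL3A1-gated cells, which stand for mesenchyme, had a single unit of 12 cells, so their difference from SOX2 cells has no replicate check of its own. With that unit assumed to vary like the others, the fit placed 3 of 18 members higher, against 2.52% of all genes called (1.34% up): LAMA1 (3.90 ± 0.79, limma, adjusted p = 0.0377), LAMB1 (4.26 ± 0.66, 0.0168) and LAMA2, at 110.3 RPM against a mean of 5.19 (5.15 ± 0.91, 0.0255). Over all 92 COL3A1-gated cells, ITGAV had a mean of 242.5 RPM, ITGB1 346, ITGB5 359, ITGA1 155.7 and ITGA6 79.2. ITGA7 was lower in GATA4 than in SOX2 cells by 4.04 ± 0.84 without a call (0.0544). None of the calls between gates was made by edgeR or without the filter on low values, and without SOX2 cells of E13 those of the GATA4 and GATA3 gates were lost, as were LAMA1 (adjusted p = 0.0536) and LAMA2 (0.0558) of the COL3A1 gate. LAMA2 of the COL3A1 gate also lost its call without SOX2 cells of E16.

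The ESC lines were set beside SOX2-gated cells after implantation. None of the 15 members tested was called, against 2.64% of all genes. In limma 6 had an unadjusted p under 0.05, beside 1724 of all 9225 genes tested, and edgeR called 0 of 14. LAMA1 was at 9.71, 11.7 and 22.3 RPM in 656BTAG, CMK6 and CMK9, within the range of the embryo days (6.81 to 41.3). ITGA5 was at 44.98, 20.8 and 41.9 RPM, above the highest embryo day of 16.7 (1.16 ± 0.33, adjusted p = 0.0963). ITGB1 was at 192, 383 and 343 RPM against 106.2 to 212.99 (0.94 ± 0.29, 0.12), and ITGA6 at 219.7, 285 and 311 against 157.5 to 190.6 (0.60 ± 0.19, 0.116).

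Between ESCs and PGCLCs, 2 of 19 tested members rose and 2 fell, against 11.1% of all genes called (4.97% up and 6.1% down). LAMA3, an alpha chain of epithelial anchoring laminins, was listed at 0 in all 28 ESCs and stood at 40.4 RPM in GK15 and 62.1 in aRB27 PGCLCs, with 8 of 12 cells at 10 RPM or more (limma, adjusted p = 0.002). LAMA2 was at 0.64, 0 and 0.36 RPM in 656BTAG, CMK6 and CMK9 and at 50.95 and 24.3 RPM in the PGCLCs (4.79 ± 0.86, 0.00287). LAMB1 went from 71.9, 60.6 and 121.2 RPM to 4.59 and 1.83 RPM (-4.36 ± 1.11, 0.0211), and ITGB1 from 192, 383 and 343 RPM to 85.8 and 62.8 RPM (-1.98 ± 0.36, 0.00302). In both media the PGCLCs lay outside the range of the ESC lines for these 4 genes, which were picked by their call. Leaving out CMK6, CMK9 or either medium ended the call of LAMB1. None of 12 PGCLCs had the whole trimer at 10 RPM or more, which allows up to 26.5%.

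Gonadal germ cells were compared with the same ESCs, so these results share their controls with the PGCLC results. Of the 19 members, 4 were higher and 5 lower than in ESCs, against 20.8% of all genes called (10.7% up and 10.1% down). LAMC1 was at 169.1, 165.4, 134.6 and 140.1 RPM on E36, E43, E50 and E51, above the 69.5, 26.8 and 51.9 RPM of the ESC lines (1.70 ± 0.35, limma, adjusted p = 0.00343). ITGA5 was at 0, 1.60, 6.45 and 1.61 RPM (-3.72 ± 0.78, 0.00401) and ITGB5 at 71.2, 40.8, 49.8 and 97.99 RPM against 216.9, 131.2 and 222 (-1.57 ± 0.34, 0.00465). These 3 did not overlap with the ESC lines. LAMA2 was higher (44.6, 14.4, 13.8 and 9.96 RPM, 3.81 ± 0.72, 0.00205), and ITGA7 was lower (2.35, 3.26, 1.66 and 7.66 RPM, -3.05 ± 0.97, 0.0367).

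The other called members of the gonad were less firm. LAMA3 (2.43 on the log2 scale, limma, adjusted p = 0.0448) and ITGA8 (3.06, 0.0471) each lost their call in 8 of 9 tests that left out 1 unit. ITGA8 averaged 29.9 RPM (SD 45.5) in the 10 gonadal cells that had 3 or more somatic genes and 1.18 (SD 4.44) in the other 15, and without the 10 it did not pass the filter. LAMB1 (-2.91, 0.0383) and ITGAV (-2.03, 0.0461) lost theirs in 5 each, and ITGA7 in 6. With edgeR, LAMC1, LAMA2, ITGB5, ITGA7, LAMB1 and ITGAV were without a call. ITGA6 was at 724, 377, 334 and 442 RPM in the gonadal units and at 219.7 to 311 RPM in the ESC lines, without overlap and without a call (0.74, 0.0799).

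Of the 25 gonadal cells, 10 had at least 3 of 10 genes of gonadal somatic cells at 50 RPM or more, and the summed level of that list ran from 12.5 to 2420.0 RPM over all 25. LAMA1 averaged 89.2 RPM (SD 115.99) in these 10 cells and 0.44 (SD 1.71) in the other 15, and LAMB1 51.99 (SD 76.7) and 2.29 (SD 4.94). LAMC1 was 146.9 RPM in the 10 and 150.6 in the 15. Leaving the 10 out was a comparison added after the data were seen, with units of at least 2 cells. It moved LAMB1 from -2.91 to -5.22 against ESCs (limma, adjusted p = 0.00157) and ended the calls of LAMA3 (0.185) and ITGAV (0.0647).

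Against PGCLCs, gonadal cells had 1 member higher and 2 lower of 19, against 12.4% of all genes called (7.45% up and 4.95% down). ITGB1 was higher at 141.3, 204.9, 190.9 and 224.2 RPM against 85.8 and 62.8 (1.34 ± 0.34, limma, adjusted p = 0.0209). LAMA3 was lower at 0.87, 2.88, 8.87 and 10.9 RPM (-3.24 ± 0.92, 0.0333), and ITGB5 was lower, against 279.6 and 263 RPM (-2.13 ± 0.39, 0.00358). Leaving out GK15, aRB27 or E51 ended the call of ITGB1, and leaving out CMK9, GK15, aRB27 or E43 that of LAMA3. edgeR made none of these 3 calls (adjusted p = 0.0844 for ITGB1, 0.137 for LAMA3 and 0.0696 for ITGB5). ITGB1 was 234.57 RPM (SD 122.3) in the 10 gonadal cells with somatic genes and 174.6 (SD 68.7) in the other 15, and without the 10 it was not called (1.11 ± 0.38, 0.105). LAMA5 was at 84.2 to 101.6 RPM in ESCs, 179.5 and 209 in PGCLCs and 50.1 to 159.7 in the gonad, with no call in any of the 3 comparisons.

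**Figure D5:**
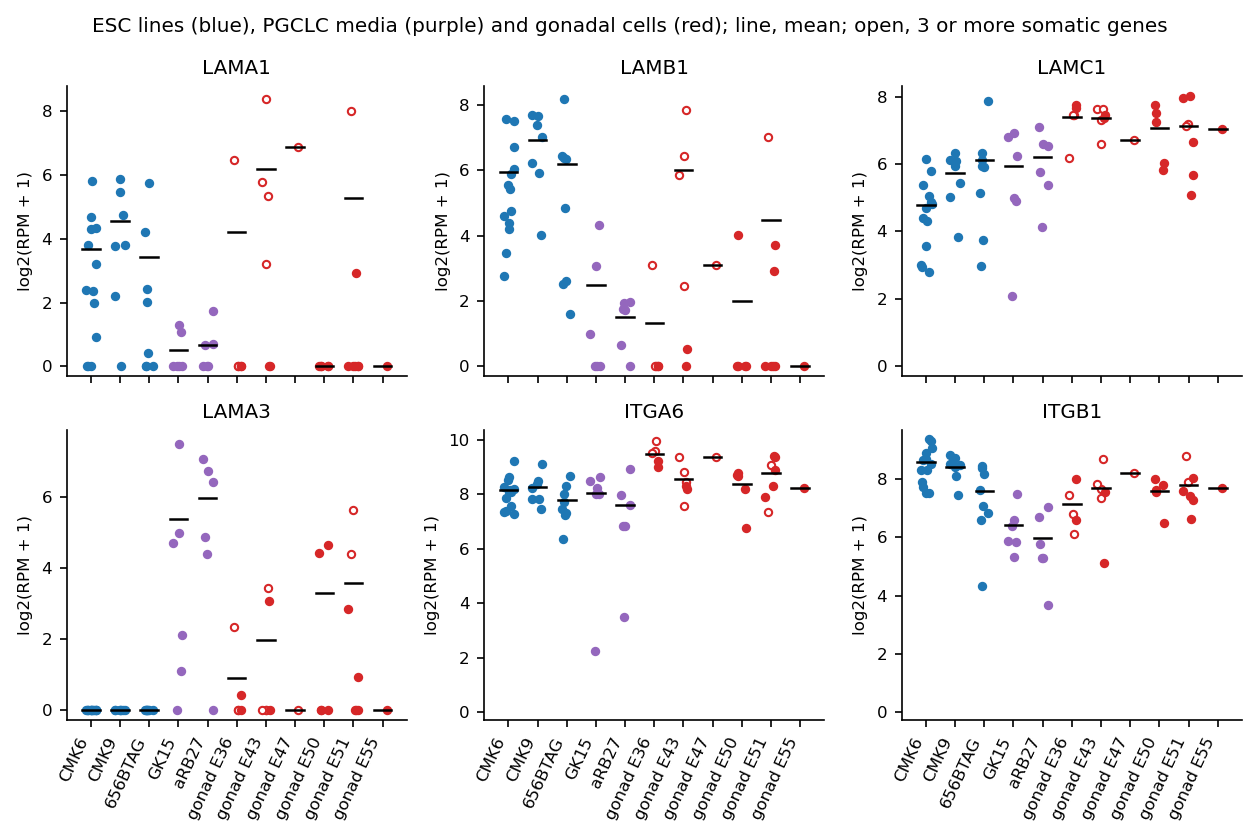
Log2(RPM + 1) of LAMA1, LAMB1, LAMC1, LAMA3, ITGA6 and ITGB1 in single ESCs, PGCLCs and gonadal germ cells (points), with group means as black lines and gonadal cells that had 3 or more somatic genes as open red points. LAMA3 is at 0 in the ESCs and has a mean of 51.3 RPM in PGCLCs, and LAMA1 and LAMB1 of the gonad lie highest in the open points.

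The partners of laminins and integrins were read from lists chosen with earlier results known. Of all genes tested, 15.3% rose and 15.4% fell in all embryo cells (30.7% called), 17% and 20.7% in the SOX2 gate (37.7%) and 10.2% and 8.64% in the GATA4 gate (18.8%), and each list count below stands beside these shares. Among the other basement membrane proteins, 5 of 13 tested rose and 0 fell in all embryo cells. The 3 with the largest change were FREM1 (4.50, 0.28 to 32.2 RPM as means of day means), FRAS1 (3.95, 0.87 to 27.2) and FREM2 (3.48, 1.24 to 26.1), extracellular proteins of 1 complex at epithelial basement membranes. In the SOX2 gate 4 of 11 rose and 0 fell, a count near the share of all genes called there, and FRAS1 was among them (4.73, 1.17 to 46.6 RPM). In the GATA4 gate 4 of 14 rose and 2 fell. Those that fell were NID2 (5427 to 247 RPM, -5.33) and NID1 (583 to 50.99 RPM, -3.98), the nidogens that link laminin to collagen IV. Their days ran from 3861 to 6409 RPM for NID2 before implantation and from 26.9 to 558 after.

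Among other ligands of integrins, 12 of 20 rose and 1 fell in all cells. COL1A1 (5.70), COL6A3 (5.31) and COL5A1 (5.01), collagens of mesenchyme, changed most, and CDH1, E-cadherin, fell (143.05 to 32.97 RPM, -2.14). In the SOX2 gate 6 of 12 rose and 1 fell. VCAN, the proteoglycan versican, rose there from 1.17 to 242 RPM (6.89 ± 0.36, limma, adjusted p = 7.90e-07), and CDH1 fell (137.7 to 54.1 RPM, -1.34). In the GATA4 gate 9 of 20 rose and 0 fell, led by COL1A1 (7.06). Cells with COL3A1, absent before implantation, made up 9.70% of SOX2-, 39.5% of GATA4- and 25.4% of GATA3-gated cells after it. Their part in the rises of any gate was not tested.

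Of other receptors for the matrix, 7 of 13 rose and 1 fell in all cells, 7 of 12 rose and 1 fell in the SOX2 gate, and 3 of 13 rose and 2 fell in the GATA4 gate. The cell-surface proteoglycan GPC4 rose from 24.9 to 223.9 RPM in the SOX2 gate (3.45) and from 8.88 to 139.4 in the GATA4 gate (5.02). SDC4, a syndecan of focal adhesions, fell in both (57.4 to 31.98 RPM, -0.82, and 194 to 75.6 RPM, -1.35). Of the proteins that couple integrins to actin, 3 of 25 rose and 5 fell in all cells, 3 of 24 rose and 6 fell in the SOX2 gate, and 3 of 26 rose and 4 fell in the GATA4 gate. These counts are near the shares of all genes called in the same tests. The kindlins, which activate integrins, moved apart in SOX2 cells: FERMT1 rose from 5.10 to 159.3 RPM (4.81 ± 0.30, limma, adjusted p = 2.90e-06) while FERMT2 fell from 192 to 82.1 RPM (-1.13 ± 0.26, 0.00629). The day means of FERMT1 ran from 3.18 to 9.52 RPM before and from 135.6 to 179 after implantation. RAP1A, a small GTPase upstream of talin, fell in the SOX2 gate from 396 to 103.4 RPM (-1.90) and in the GATA4 gate from 961 to 112.5 RPM (-3.10).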

How the data were processed

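The authors deposited 1 table of RPM per gene and cell from SC3-seq. The processing notes of the submitters list TopHat 1.4.1, Cufflinks 2.2.0 and cutadapt 1.3. For the genome build, the entry is not given in the sources used here. RPM values of the authors summed to 988458 to 996773 per cell. Values were whole multiples of 1 read for 541 cells (99.8% of values above 0 within 0.1 read), which gave depths of 255085 to 19696105 reads (median 2203001). The intervals for shares of cells (exact, 95%) cover counting error only. The other 64 cells have no depth.

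RPM was averaged over cells per unit, of at least 5 cells in the main tests. Units by title code had at least 3 cells, and those without gonadal cells carrying somatic genes at least 2. The log2(mean + 1) was tested with limma 3.58.1 (eBayes with trend, R 4.3.3) after a filter of 10 RPM in 2 units, with Benjamini-Hochberg adjustment over all genes tested. The comparisons between gates had the day as a term. edgeR 4.0.16 (quasi-likelihood) on recovered reads, summed per unit, was an added alternative and called 931 genes (9.47% of those tested) in the GATA3 gate, where limma called 1772 (17.8%). The method was tested on simulated data. Alternatives were the pseudocount, the filter, the mean of logs, quantile normalization, the unit size, gates of 20 and 100 RPM, cells of 1 gate, title code and leaving out each unit. Chosen after seeing the data were edgeR and the sets without cells carrying GATA6, COL3A1 or gonadal somatic genes. The members and lists were chosen with earlier results of these data known. Members called in a comparison were named (at most 12), and from each list at most 3 called genes per direction in a comparison. A pair of columns with identical values was looked for, and 0 were found. In 1 CMK6 cell the description names CMK9, and it was kept as CMK6. Sequences and coordinates were not used here. Another gene that the rule matched is not reported here and enters no count of members. COL3A1-gated cells were absent before implantation and were not compared across it.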

Additional observations from a re-analysis of the deposited data

Results flagged for a closer look

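Of 71 groups of units examined for a single unit apart from the others, 6 had one, and chance gives about 1 in 20 groups. In all embryo cells before implantation, E06 (24 cells) was the lowest of 4 days for LAMA1 (157.5 RPM, next 655), for LAMC1 (244, next 447) and for ITGB5 (26.8, next 111.4). In the GATA3 gate after implantation, ITGA1 was highest on E13 (58.6 RPM over 35 cells, next 17.7). In cells of the SOX2 gate alone after implantation, LAMA1 was highest on E16 (12.8 RPM over 34 cells, next 6.50). In gonadal germ cells, ITGA8 was lowest on E50 (0 RPM over 5 cells, next 14.5).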

How the results depend on the processing

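Over the 60 member changes called, 1022 values under alternatives were computed: 802 kept direction and call, 2 had the other sign and the rest kept the direction without the call. Those of the other sign were LAMA1 in the SOX2 gate by units of day and title code (1.10, with 1 day before implantation) and LAMA1 of the COL3A1 against the SOX2 gate with units of at least 1 cell (-0.42, limma, adjusted p = 0.894). The causes of the shifts below were not tested, except that fewer cells or units enter some sets and more genes are tested without the filter. Each percentage is of the genes tested that were called, and a count after it is of members called. Those for units of day and title code in the SOX2 and GATA4 gates rest on 1 day before implantation and cannot decide whether a member changed.

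Units of day and title code called 16.2% and 5 in all cells, 4.83% and 1 in the SOX2 gate, 0.932% and 1 in the GATA4 gate and 2.87% and 3 in the GATA3 gate. Without the filter on low values, the calls were 10.8% (all cells), 15.6% (SOX2), 4.20% and 2 (GATA4), 3.75% and 4 (GATA3), 0% and 0 (GATA4 against SOX2 and GATA3 against SOX2), 0.747% and 0 (COL3A1 against SOX2) and 0.760% (difference of changes). The same setting gave 0.222% for ESCs against SOX2, 3.40% for PGCLCs against ESCs, 7.82% and 4 for the gonad against ESCs, and 2.80% and 1 for the gonad against PGCLCs. Units of at least 1 cell gave 7.37% and 2 (GATA4), 0.411% and 1 (GATA4 against SOX2), 0.201% and 0 (GATA3 against SOX2), 1.02% and 1 (COL3A1 against SOX2), 0.131% for the difference of changes, 4.43% for PGCLCs against ESCs, 13.1% and 5 for the gonad against ESCs and 5.30% for the gonad against PGCLCs. Cells of the GATA4 gate alone gave 7.43% and 4, and a gate of 20 RPM for GATA4 gave 11 members. No alternative for the GATA4 gate called more than 24.6% of genes.

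edgeR called 9.47% and 5 in the GATA3 gate. It called 0.0992% and 0, 0.159% and 0, and 0.159% and 0 for the GATA4, GATA3 and COL3A1 against the SOX2 gate, 1.13% for the difference of changes, 1.56% for ESCs against SOX2, 7.53% for PGCLCs against ESCs, 8.04% and 3 for the gonad against ESCs and 3.26% and 1 for the gonad against PGCLCs. For the GATA4 against the SOX2 gate, a pseudocount of 10 gave 2.29% and 4, a gate of 20 RPM 3.72% and 5, a gate of 100 RPM 2.73%, and no day term 6.98% and 5. For GATA3 against SOX2, no day term gave 4.93%. For COL3A1 against SOX2, a pseudocount of 10 gave 6 members, a gate of 20 RPM 5.29% and 6, a gate of 100 RPM 0.0499% and 0, and no day term 9.70% and 9. No alternative called more than 9.70% of genes in that comparison. The difference of changes had 3.29% with a pseudocount of 10, 3.14% with a gate of 20 RPM and 2.98% with one of 100 RPM, and the GATA3 gate at 100 RPM had 11.4%. Without gonadal cells that had somatic genes, 5.58% were called for PGCLCs against ESCs and 5.99% for the gonad against PGCLCs.

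The mean over cells of log2 values moved the median change of all genes to -0.30 in all cells, -0.25 (SOX2), -0.35 (GATA4) and -0.27 (GATA3), and no called member reversed. With it, the share of calls that were higher went from 49.8% to 33.6% in all cells, from 54.1% to 29.6% (GATA4), from 58.97% to 37.4% (GATA3), from 74.1% to 38.2% (GATA4 against SOX2, 3.91% called), from 77.3% to 43.0% (GATA3 against SOX2, 2.27% called), from 53.4% to 23.7% (COL3A1 against SOX2, 8.73% and 8 called), from 73.1% to 46.6% (difference of changes), from 53.7% to 80.9% (ESCs against SOX2, 1 member called) and from 44.9% to 26.8% (PGCLCs against ESCs). Quantile normalization moved it to 60.5% for the difference of changes.

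Leaving out 1 unit at a time gave 21.6 to 35.3% and 9 to 12 members in all cells, 28.9 to 38.8% and 7 to 10 (SOX2), 9.79 to 20.8% and 4 to 9 (GATA4), 9.75 to 17.99% and 6 to 9 (GATA3), 0.204 to 9.90% and 0 to 5 (GATA4 against SOX2), 0.430 to 3.47% and 0 to 5 (GATA3 against SOX2), 0.994 to 7.48% and 2 to 10 (COL3A1 against SOX2) and 0.512 to 10.8% and 0 to 1 (difference of changes). The ranges were 0.571 to 8.53% and 0 to 4 (ESCs against SOX2), 4.58 to 13.9% and 3 to 6 (PGCLCs against ESCs), 12.6 to 22.2% and 4 to 7 (gonad against ESCs) and 3.70 to 14.5% and 1 to 5 (gonad against PGCLCs).

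No paired analysis was possible because replicate numbers follow accession order and name single cells, not shared animals or cultures. The terms for day and for title code used above are no pairing by replicate number. The median depth of 2203001 reads sets 1 read near the floor of the low members, whose single-cell zeros say little.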

Other observations

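ITGB3BP, whose symbol resembles an integrin's while its product is a centromere protein, was at 26.99, 19.8, 19.9 and 12.8 RPM on E06 to E09 and at 44.5, 49.7, 63.05, 64.97 and 42.03 RPM on E13 to E20. The days did not overlap, and the rise was 1.39 ± 0.25 (limma, adjusted p = 0.00258). It rose in the SOX2 gate by 1.14, in the GATA4 gate by 1.81 and in the GATA3 gate by 1.87. A count of integrins taken by symbol alone would add it to the members that rose.

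ITGB4, the beta subunit of hemidesmosomes, had a mean of 23.4 RPM on E09 and at most 5.91 RPM on any other embryonic day. ITGA8 had a mean of 64.7 RPM over the 5 cells of E20 and 16.2 on E16, and at most 1.15 on the other embryonic days.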
